A study of Rattus norvegicus with 18 samples.

Results

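Heart RNA of the spontaneously hypertensive rat, titled SHR in the labels, was set against heart RNA of the normotensive WKY rat. The comparison used the 6 libraries titled SHR and the 6 titled WKY, out of 18 in the series; the other 6, titled QDG, came from SHR treated with QDG and are given only as values beside a result. Genes were kept when they stood at 1 FPKM or more (fragment counts divided by gene length and library size) in at least 6 of the 12 libraries, which left 16639 of the 37262 genes listed. The labelled groups are Normal for WKY, Hypertension for SHR given NS, and QDG Treatment. NS and QDG are not spelled out, whether WKY also received NS is not stated, and no age, sex or part of the heart is given. A difference between the strains and a difference made by NS can therefore not be told apart if WKY did not receive it. The labels count 6 per group without saying whether each library was a separate animal. The p-values measure only how these libraries varied, which may be technical.

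The SHR was bred from Wistar stock by selecting for high blood pressure, and WKY is the strain usually kept as its control. With age the SHR heart works against raised pressure and its wall thickens, a process that in hypertensive hearts generally involves muscle growth, matrix deposition and a shift in fuel use. The strains also differ in their genomes, so a comparison between them measures inherited and pressure-related differences together. RNA depleted of ribosomal RNA, as used here, keeps long noncoding transcripts as well as messenger RNA.

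Ensembl identifiers named 12165 of the genes tested, and the other 4474 had names from NONCODE, which catalogues noncoding RNA. These made up 59.7% of the Ensembl genes listed and 26.5% of the NONCODE genes listed. Just inside the level threshold lay 474 genes, at 1 FPKM or more in exactly 6 libraries, and just outside it 354, at that level in exactly 5. No gene symbols accompany the identifiers, and 0 of the 37262 could be matched to a symbol in the gene table used here. Genes are therefore described by class, level and rank, with 4 printed by identifier, and the tissue label could not be set against heart muscle markers. In bulk tissue, fewer cells of a type and less RNA per cell cannot be told apart.

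The 12 libraries separated by strain along their main axis of variation. The first principal component of the log2(FPKM + 1) values carried 34.7% of the variance and ran from -30.20 to -16.92 in WKY and from 19.43 to 22.01 in SHR, so the strains did not overlap on it. Every library correlated best with a library of its own strain. The Pearson correlation across genes lay between 0.976 and 0.983 within SHR, between 0.962 and 0.983 within WKY, and between 0.946 and 0.968 across strains; these are descriptions over genes, which are not independent replicates.

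WKY replicate 5 stood apart from its group. Its correlations with the other WKY libraries were 0.962 to 0.973, against 0.976 to 0.983 among those 5, and its correlations with SHR libraries were 0.946 to 0.956, against 0.958 to 0.968 for the other WKY libraries. On the second component it lay at -32.00, with WKY replicate 1 at -7.82, the other WKY libraries at 7.44 to 17.34 and SHR at -14.93 to 5.41. It also had the lowest relative depth of the 12, at 0.877 of WKY replicate 1, where the others ranged from 0.947 to 1.09. Whether depth has a part in the position of WKY replicate 5 was not tested.

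**Figure D1:**
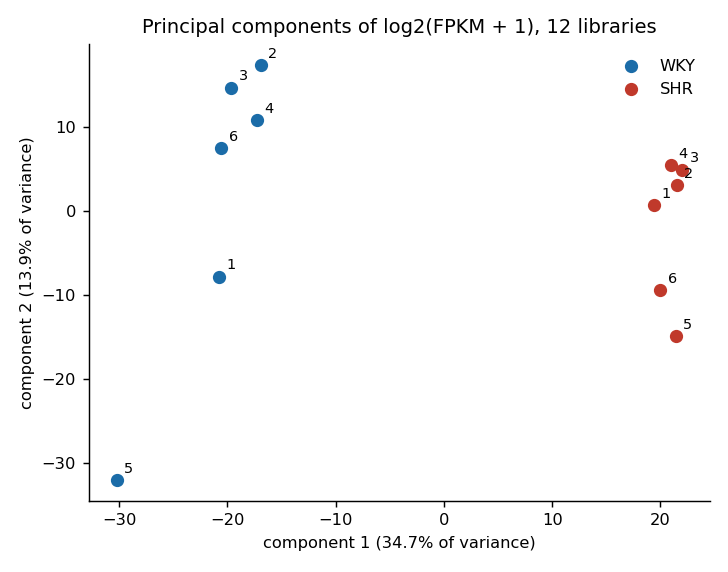
Positions of the 12 libraries on the first and second principal component of log2(FPKM + 1) over the 16639 tested genes; each point is a library, numbered by replicate, blue for WKY and red for SHR. The strains separate along the horizontal axis, and WKY replicate 5 lies lowest on the vertical axis.

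Genes varied more between WKY than between SHR libraries, and the same libraries bore on this. The median SD of a gene was 0.153 log2 units in WKY and 0.125 in SHR, and WKY had the larger SD for 63.9% of the genes. Without WKY replicate 5 that share was 53.0%, and without WKY replicates 1 and 5 it was 40.9%, with a median SD of 0.109 in WKY. No SHR library was left out in these counts, and leaving out the outlying WKY libraries lowers the WKY spread by construction. The difference in spread was not tested.

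Between the strains, 3916 genes passed the test (limma, adjusted p under 0.05), which is 23.5% of those tested. The calls were divided into 1931 higher in SHR (11.6%) and 1985 lower (11.9%). The more frequent direction turned with scaling. Median centring gave 2379 calls above WKY and 1968 below, and quantile normalization gave 2196 above and 2119 below. The 6 values of SHR and the 6 of WKY did not overlap for 2120 genes (12.7% of those tested), 1072 with SHR above (6.44%) and 1048 with SHR below (6.3%), and 2095 of these also passed the test.

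Few called genes changed much. Their log2 fold changes had a median size of 0.35 and a median SE of 0.08. A change of at least 1.5-fold was reached by 751 called genes, of at least 2-fold by 238, of at least 4-fold by 41 and of at least 8-fold by 15. At 2-fold the directions were level, with 120 higher and 118 lower in SHR. At 4-fold 27 were higher and 14 lower. These counts include genes that met the level filter through the strain where they were high, 10 of the 15 at 8-fold. No direction is read from them. These folds were computed after adding 1 to each FPKM, which makes the change of genes with low values look smaller than it is.

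On the log2(FPKM + 1) scale the data bounded the strain difference closely for many genes. Where values are low the added 1 shrinks the fold, so the same bound is looser in FPKM. For 13874 genes (83.4%) both ends of the 95% interval were smaller than a 1.5-fold change on the same scale, and for 15841 (95.2%) smaller than a 2-fold change. Of the 13874 genes bounded within 1.5-fold, 2358 were called, so a passed test did not by itself mark a large difference. The bound was met by 87.1% of Ensembl genes and 73.4% of NONCODE genes.

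**Figure D2:**
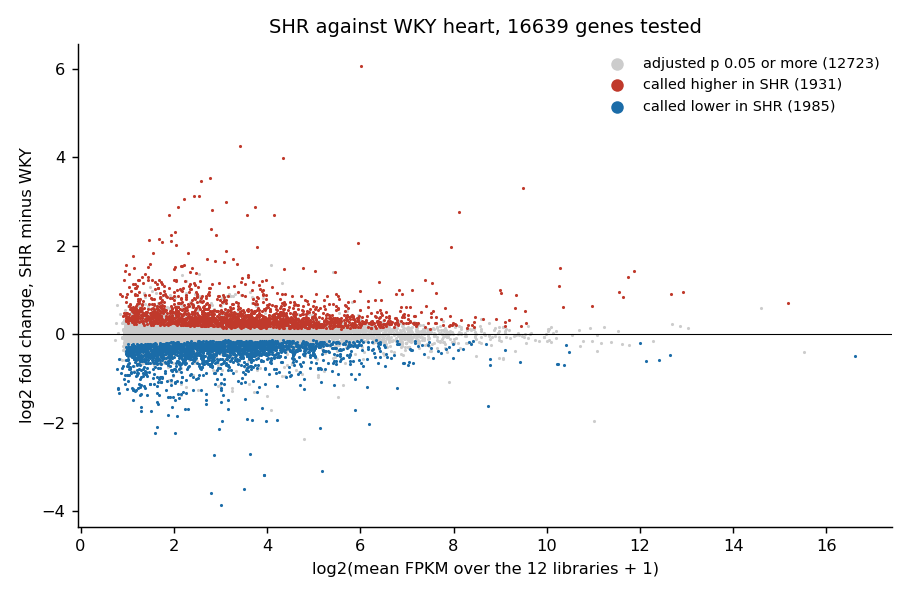
Each point is a tested gene, with log2 of its mean FPKM over the 12 libraries plus 1 on the horizontal axis and its log2 fold change, SHR minus WKY, on the vertical axis. Red points are the 1931 genes called higher in SHR, blue points the 1985 called lower and grey points the genes not called; most called points lie close to 0.

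The direction of the calls changed with expression level. When the tested genes were divided into 5 bins of equal size by mean level, the highest bin, with a median of 31.9 FPKM, held 633 genes called higher in SHR and 396 called lower, or 19.0% and 11.9% of its genes. In the lowest bin, with a median of 1.38 FPKM, 224 were called higher and 321 lower, or 6.73% and 9.65%. Most of that excess of lower calls lay in NONCODE genes, with 73 higher and 161 lower. Ensembl genes of the lowest bin had 151 higher and 160 lower (9.79% and 10.4%). The parts of level and class were not separated. The median log2 fold change over all genes of a bin moved little, from -0.03 in the lowest to 0.02 in the highest. In the highest bin calls higher in SHR were the more numerous in 24 of 24 alternative settings, with 609 higher and 538 lower after quantile normalization and 16 higher and 12 lower in a test against a 1.5-fold change. In the lowest bin calls lower in SHR were the more numerous in 23 of the 23 settings that kept that bin, with 273 higher and 290 lower after quantile normalization and 28 higher and 32 lower against a 1.5-fold change. No difference between bins was tested.

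Called genes of the lowest bin had larger changes than those of the highest. Their median absolute log2 fold change was 0.47 in the lowest bin and 0.30 in the highest, beside a median SE of 0.11 and 0.07 over all genes of those bins. A gene with a larger SE needs a larger change to be called, so this order follows at least in part from the threshold. Genes of the lowest bin can also meet the level filter through the strain where they are high. The share of genes called at 2-fold or more was 2.22% in the lowest bin and 0.811% in the highest, while the share called at all was 16.4% and 30.9%.

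NONCODE genes were called lower in SHR more often than higher. Of 4474 tested, 467 were called lower (10.4%) and 322 higher (7.20%), and the lower calls were the more numerous in 23 of 23 settings that tested the same NONCODE genes. Of 12165 Ensembl genes, 1609 were called higher (13.2%) and 1518 lower (12.5%), an order that turned in 5 of 23 settings. These were the fits without WKY replicate 3 (1351 higher, 1451 lower), WKY replicate 4 (1377 and 1581), SHR replicate 1 (1307 and 1408) or SHR replicate 5 (1433 and 1529), and the fit with a replicate block (1692 and 1745). In the highest level bin NONCODE genes also had more calls higher than lower, 51 against 39 of 283, and in the lowest bin fewer (4.09% against 9.01%). Called NONCODE genes had a median absolute log2 fold change of 0.44 and called Ensembl genes 0.32. Their median SE was 0.098 and 0.071, and a larger SE requires a larger change for a call, so this gap follows at least in part from the threshold. A change of 2-fold or more was reached by 81 called NONCODE genes (34 higher, 47 lower) and by 157 called Ensembl genes (86 higher, 71 lower).

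**Figure D3:**
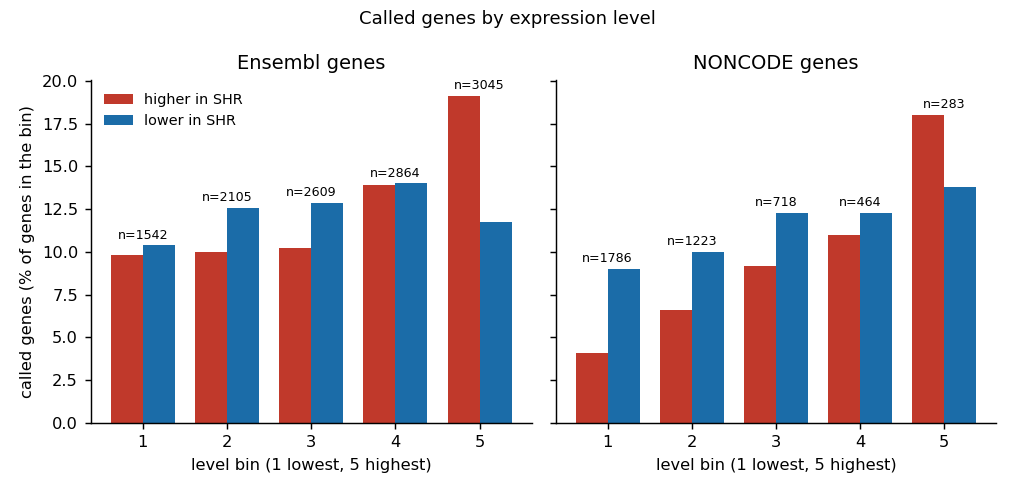
Bars give the percentage of genes called higher (red) or lower (blue) in SHR in each of 5 bins of mean level, for Ensembl genes on the left and NONCODE genes on the right; n is the number of genes in the bin. In the highest bin the red bars exceed the blue in both classes. In the lowest bin the blue bars exceed the red, only slightly for Ensembl genes.

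The most abundant genes of the heart differed between the strains in both directions. Of the 20 with the highest mean FPKM, 12 were called, 7 higher in SHR and 5 lower, beside 23.5% of all genes tested. The values are taken as FPKM, which is scaled to gene length, and levels are set side by side between genes on that reading. The 4 genes with the largest changes in mean FPKM among called genes whose groups do not overlap, 2 in each direction, are given by identifier.

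ENSRNOG00000043866, an Ensembl gene, was the most abundant of all. Its lowest, median and highest values were 101410, 119154 and 132423 FPKM in WKY and 78281, 82142 and 95159 FPKM in SHR. The highest SHR library lay below the lowest WKY library. The log2 fold change was -0.48 (SE 0.09, limma adjusted p = 0.001, n = 6 each). QDG-treated SHR stood at 77459 to 87503 FPKM, inside or just below the range of SHR given NS. This gene made up 39.9% of the summed fall in mean FPKM over all genes that were lower in SHR. Quantile normalization sets the highest value of every library equal, and by that construction its fold change became 0.

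ENSRNOG00000030478, ranked 3 by mean level, was higher in SHR. It stood at 22713, 28264 and 33480 FPKM (lowest, median, highest) in WKY and at 42180, 43277 and 57404 FPKM in SHR. The groups did not overlap, and the highest SHR value belonged to replicate 4, well above the next at 45750 FPKM. The log2 fold change was 0.71 (SE 0.11, limma adjusted p = 0.00029, n = 6 each). The values after QDG were 39264 to 57910 FPKM. This gene made up 24.0% of the summed rise in mean FPKM over all genes that were higher in SHR.

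ENSRNOG00000030700, ranked 6, had 2476, 6109 and 7210 FPKM in WKY and 7988, 9947 and 11640 FPKM in SHR. SHR was higher throughout, and WKY replicates 5 and 1 were the lowest, at 2476 and 3869 FPKM. The log2 fold change was 0.94 (SE 0.24, limma adjusted p = 0.011, n = 6 each), and 0.58 without those 2 libraries (limma adjusted p = 0.00134), which is below 1.5-fold. After quantile normalization it was 0.66 and no longer called (limma adjusted p = 0.0754). QDG-treated SHR stood at 7275 to 12576 FPKM, which reaches down to the upper end of WKY without overlapping it.

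NONRATG023456.2, a NONCODE gene ranked 11, was lower in SHR. Its lowest, median and highest values were 5268, 5814 and 8673 FPKM in WKY and 3624, 4181 and 5253 FPKM in SHR. The groups did not overlap, but the highest SHR value came within 15 FPKM of the lowest WKY value, and WKY replicates 5 and 1 were the highest. The log2 fold change was -0.59 (SE 0.14, limma adjusted p = 0.0081, n = 6 each), and -0.38 without those 2 libraries (limma adjusted p = 0.0123). The Ensembl gene ranked 13 stood at 0.805 to 0.868 of its value in every library, with a correlation of 0.999 over the 12 libraries, so the 2 were not separable in these data.

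**Figure D4:**
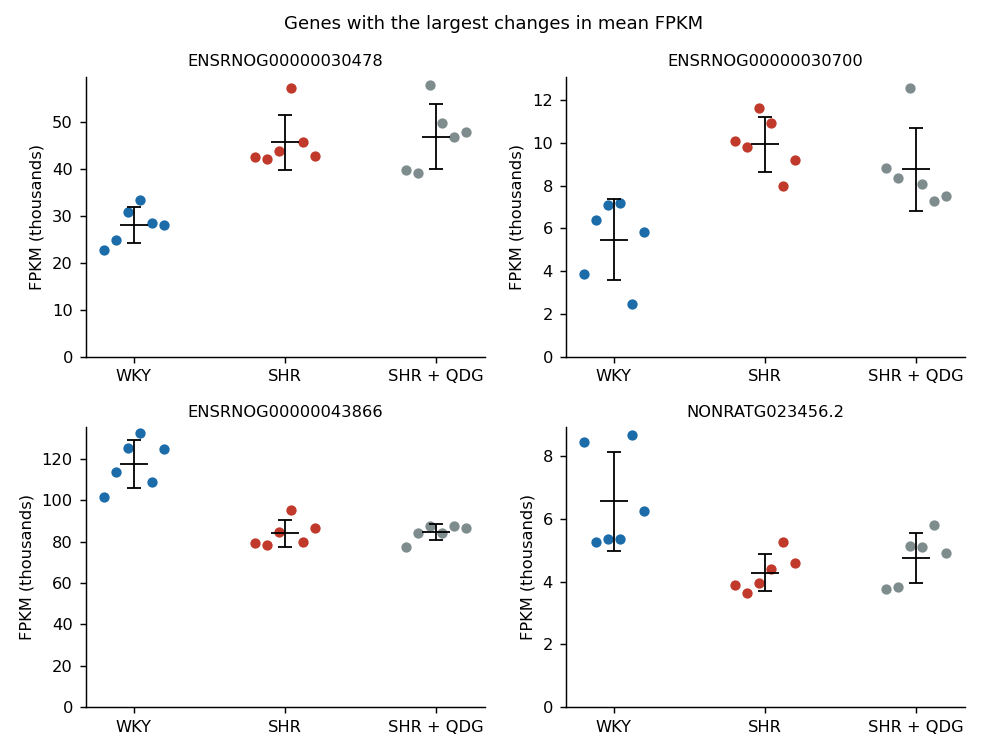
FPKM divided by 1000 for the 4 genes with the largest changes in mean FPKM among called genes without overlap, by group; each point is a library, and the horizontal mark and bars are the mean and SD of 6 libraries. SHR lies above WKY in the upper panels and below WKY in the lower panels, and QDG-treated SHR is shown in grey for comparison.

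Besides the genes ranked 3 and 6, another 5 of the 20 most abundant were higher in SHR without overlap, with ratios of mean FPKM from 1.76 to 2.56. Of the same 20, 3 were lower in SHR without overlap. Over all genes tested 6.44% were higher and 6.3% lower without overlap. WKY replicate 5 was the lowest WKY library for 6 of the 7 genes that were higher, and WKY replicate 1 the next for 5 of these 7. Their log2 fold changes were 0.71 to 1.43 with all libraries and 0.58 to 1.10 without those 2, and all 7 were still higher in SHR. The genes ranked 2 and 4 were not called (limma adjusted p = 0.067 and 0.059). The gene ranked 2 stood at 38916 to 81409 FPKM in WKY and 34995 to 46984 in SHR, with WKY replicate 5 the highest. The gene ranked 4 stood at 9549 to 25955 FPKM in WKY and 23178 to 31453 in SHR, with WKY replicate 5 the lowest.

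No difference between the strains passed the test in the share of all FPKM held by abundant genes. The 10 most abundant genes together took 41.1% ± 2.40 of all FPKM in WKY, against 39.6% ± 1.49 for SHR (SD, n = 6 each; two-sided exact permutation p = 0.234, adjusted 0.468 over 8 library measures). The difference, SHR minus WKY, was -1.47 percentage points, and ranged from -2.12 without WKY replicate 1 to -0.826 without WKY replicate 4. Genes ranked 11 to 100 took 18.9% ± 1.23 and 19.7% ± 0.282 (SD, n = 6 each; exact permutation p = 0.134, adjusted 0.398). Without WKY replicate 5 the exact permutation p of that measure was 0.0108, unadjusted. The number of NONCODE genes at 1 FPKM or more was 4569 ± 196 in WKY, against 4335 ± 182 for SHR, which also missed the threshold (SD, n = 6 each; exact permutation p = 0.0606, adjusted 0.398). The unadjusted exact permutation p of this measure was 0.0346 without WKY replicate 1, 0.0455 without WKY replicate 6 and 0.0216 without SHR replicate 1.

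Of 508 genes with a mean of at least 100 FPKM, 148 were called (97 higher, 51 lower). That is 29.1%, beside 30.9% in the highest level bin and 23.5% of all genes tested. At least 2-fold changes were called for 11 of the 508, 9 higher and 2 lower, or 2.17% beside 1.43% of all genes tested. All 11 were Ensembl genes, picked out by level and fold after the values were seen, and none overlapped between the strains, beside 12.7% of all genes tested without overlap. The choice by fold favours genes without overlap.

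The largest of the 11 was the gene ranked 67. It stood at 96.8, 122 and 180 FPKM (lowest, median, highest) in WKY and at 843, 1211 and 2194 FPKM in SHR, so the lowest SHR library was several times the highest WKY library. The log2 fold change was 3.31 (SE 0.21, limma adjusted p = 2.5e-07, n = 6 each), a ratio of means of 10.3. QDG-treated SHR stood at 577 to 1535 FPKM.

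The gene ranked 162 was next by fold but varied widely. It ranged from 23.4 to 161 FPKM in WKY and from 189 to 1234 FPKM in SHR, and its log2 fold change was 2.77 (SE 0.56, limma adjusted p = 0.0045, n = 6 each). SHR replicate 5 was far above the other SHR libraries, which ended at 461 FPKM, and without it the log2 fold change was 2.44 (limma adjusted p = 0.00684).

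The gene ranked 39 varied less. It stood at 526 to 711 FPKM in WKY, 1516 to 2047 in SHR and 1404 to 2080 after QDG, and its log2 fold change was 1.49 (SE 0.09, limma adjusted p = 4.1e-08, n = 6 each). The gene ranked 182 stood at 64.3 to 166 FPKM in WKY, 317 to 478 in SHR and 196 to 424 after QDG (log2 fold change 1.97, SE 0.18, limma adjusted p = 5.9e-06). The gene ranked 248 stood at 103 to 131 FPKM in WKY, 189 to 301 in SHR and 150 to 240 after QDG (log2 fold change 1.15, SE 0.11, limma adjusted p = 3.9e-06). The gene ranked 279 stood at 82.0 to 118 FPKM in WKY, 205 to 286 in SHR and 123 to 223 after QDG (log2 fold change 1.23, SE 0.10, limma adjusted p = 1.5e-06). The gene ranked 40 stood at 438 to 1052 FPKM in WKY and 1422 to 1904 in SHR (log2 fold change 1.08, SE 0.19, limma adjusted p = 0.0013). Its log2 fold change was under 2-fold without WKY replicate 5 (0.91), without WKY replicate 1 (0.996) and without both (0.77). That of the gene ranked 17 was 1.29, and 0.98 without both. In 8 of the 9 genes that were higher in SHR, the lowest QDG library was above every WKY library and below every SHR library, the exception being the gene ranked 162. The choice of genes for high SHR values favours lower values in any other group. The share over all genes was not counted, so no effect of QDG is read from this.

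Of the 2 abundant genes that fell by at least 2-fold, the gene ranked 114 stood at 524 to 958 FPKM in WKY and 151 to 251 in SHR (log2 fold change -1.63, SE 0.15, limma adjusted p = 3.9e-06). WKY replicate 5 was the highest there, and without it the log2 fold change was -1.51. The gene ranked 473 stood at 118 to 175 FPKM in WKY, 56.8 to 70.2 in SHR and 63.1 to 69.4 after QDG (log2 fold change -1.22, SE 0.09, limma adjusted p = 2.7e-07). Its QDG libraries varied little and lay inside the SHR range.

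On the log2(FPKM + 1) scale 15 called genes changed at least 8-fold, 9 higher and 6 lower in SHR, and they were described after their values were seen. None overlapped between the strains, beside 12.7% of all genes tested, and a choice by such a fold favours this. In 10 of the 15 fewer than 6 libraries of the lower strain reached 1 FPKM, so these met the level filter through the strain where they were high. They are described by values and fold only, without SE or p-value, and their calls are not taken as support. The added 1 sets the order of folds among genes near 0, so no order is read from them. A NONCODE gene ranked 790 was among the 9 that were higher in SHR. It stood at 0.480, 0.903 and 1.47 FPKM (lowest, median, highest) in WKY and at 102, 130 and 140 FPKM in SHR, so that every SHR library was far above every WKY library. Its log2 fold change was 6.06, and QDG-treated SHR had 85.3 to 133 FPKM.

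An Ensembl gene ranked 5572 stood at 0 to 0.132 FPKM in WKY and 16.9 to 22.5 FPKM in SHR (log2 fold change 4.25). The Ensembl gene ranked 2892 had 1.01 to 1.71 FPKM in WKY and 23.5 to 52.9 FPKM in SHR (log2 fold change 3.98, SE 0.16, limma adjusted p = 1.6e-09). Both had QDG values far above WKY, at 17.0 to 26.4 and 34.7 to 66.4 FPKM.

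Among the 6 that were lower, the Ensembl gene ranked 1496 had the highest level. It had 46.8, 58.1 and 99.3 FPKM in WKY and 4.28, 6.59 and 8.86 FPKM in SHR (log2 fold change -3.10, SE 0.19, limma adjusted p = 2.2e-07). After QDG it had 4.04 to 8.92 FPKM. The Ensembl gene ranked 5264 had 12.3 to 34.0 FPKM in WKY, 0.367 to 1.36 in SHR and 0.715 to 3.39 after QDG (log2 fold change -3.49). Another 2 of the 6 held identical values in all 12 libraries, at 18.1 to 56.8 FPKM in WKY and 1.42 to 2.26 FPKM in SHR, and cannot be told apart. Such identical entries were few, 31 of the tested genes in 15 sets, and counting each set once left 3913 called genes.

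Some genes were close to absent in either strain, 4 of the 15 among them. In 7 genes every WKY library was below 0.1 FPKM while every SHR library reached 1 FPKM, and the reverse held for 4. The rule selects for the difference, so the values are given as a description. The most abundant of the 7 was a NONCODE gene listed at 0 in all 6 WKY libraries and at 9.17, 9.90 and 11.1 FPKM (lowest, median, highest) in SHR, with 8.01 to 12.4 after QDG. An Ensembl gene stood at 6.49 to 8.31 FPKM in SHR and was listed at 0 in 5 WKY libraries and at 0.0455 in the sixth. Another stood at 5.81 to 7.32 FPKM in SHR and at 0 to 0.0530 in WKY. In SHR the remaining 4 ranged from 1.51 to 6.70 FPKM over their libraries, and 3 of these were listed at 0 in every WKY library.

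The 4 genes present in WKY were a pair of NONCODE genes at 9.45 to 23.5 and 10.6 to 13.7 FPKM in WKY and a pair of Ensembl genes at 1.06 to 1.90 and 1.27 to 1.84 FPKM. In SHR the first was listed at 0 in all 6 libraries and the others stood between 0 and 0.0658 FPKM. In each of the 11 genes all 6 QDG libraries had values on the SHR side, at 1.39 FPKM or more for the 7 and at 0.0884 FPKM or less for the 4. No fold is given for genes listed at 0 throughout a group.

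**Figure D5:**
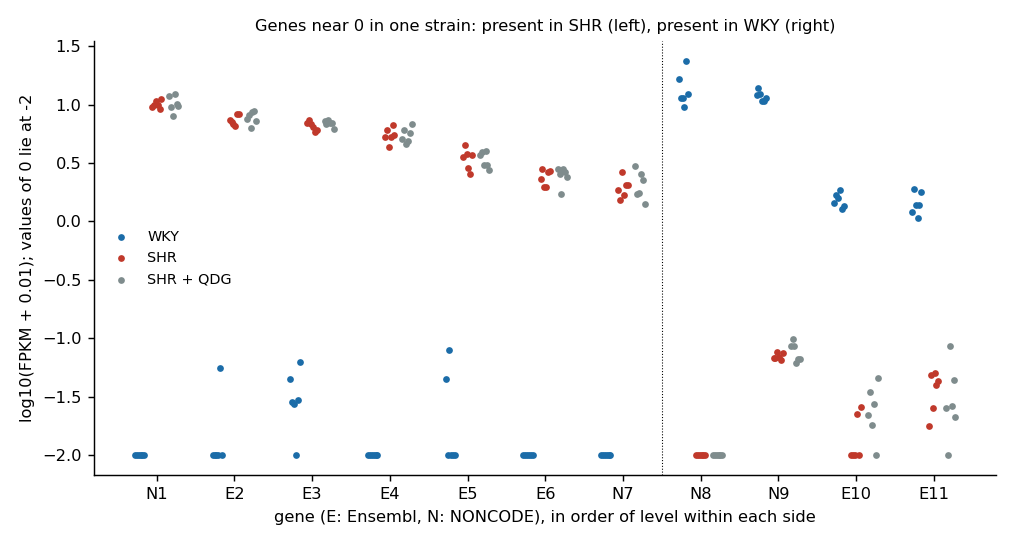
The 11 genes below 0.1 FPKM in all libraries of either strain and at 1 FPKM or more in all libraries of the other, as log10(FPKM + 0.01), so that 0 lies at -2; each point is a library. The 7 genes on the left are present in SHR and the 4 on the right in WKY, and the grey QDG points lie with SHR in every gene.

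A weaker rule gave more genes in each direction. Genes at 1 FPKM or more in every library of either strain and below 1 in every library of the other numbered 60 with SHR above (41 Ensembl, 19 NONCODE) and 68 with WKY above (33 Ensembl, 35 NONCODE). They were few beside the 12165 Ensembl and 4474 NONCODE genes tested. This rule also selects for the difference, and nothing is read from the split by class. Over all 37262 genes listed, 36 were at 0 in every WKY library and above 0 in every SHR library, and 26 the reverse. Their levels were mostly low, with a median of the group means of 0.179 FPKM and 0.183 FPKM, and 4 and 1 of them reached the level for testing.

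A value of 0 in these files is not always a low level. Of 52 tested genes with a median of at least 1000 FPKM over the 12 libraries, 1 was listed at 0 in at least 1 library, and of 5383 with a median of at least 10 FPKM, 10 were. That gene, ranked 27, ranged from 1635 to 3714 FPKM in WKY and from 0 to 3494 FPKM in SHR, and was not called (limma adjusted p = 0.48). A further set of genes stood at 2 levels inside a strain, with a gap of at least 1 log2 unit, more than double the range on either side of it, and at least 2 libraries on each side. There were 114 such genes in WKY and 126 in SHR, 45 of them in both, and most were NONCODE genes (79 and 83). Of these, 2 and 5 were called between the strains, beside 23.5% of all genes tested. A gene chosen for a gap inside a strain has a large spread by construction, so nothing is read from these counts.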

How the data were processed

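RNA of heart tissue was extracted with Trizol, depleted of rRNA and made into libraries with a NEB kit for Illumina, per the labels' protocols. The deposited values are taken as FPKM, scaled by the authors to gene length and library size. The files do not name the unit, which was read from values that are not whole and column sums that differ; TPM with genes removed is possible. The submitters' processing notes name limma, but the aligner, counter, strand setting and build were not given in the sources used here. Overlapping and antisense genes can therefore not be told apart. The labels of SHR and WKY share replicate numbers without saying that these pair animals, so no pairing was used. Over all tested genes, after taking out the strain mean of each gene, same-numbered libraries correlated at -0.04 to 0.16. Such a correlation does not describe single genes, and a shared batch was not tested.

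Genes at 1 FPKM or more in at least 6 of the 12 libraries entered limma 3.58.1 (R 4.3.3, statmod 1.5.0) as log2(FPKM + 1); the fit used an intensity trend and robust moderation, with two-sided tests and Benjamini-Hochberg adjustment over 16639 genes at 0.05. On simulated data for SHR against WKY (16639 genes, 200 changed, 5 runs) this recovered 82.4% of 1.5-fold and 96.2% of 2-fold changes. Of the calls made there, 5.70% were false. In the heart data 3916 genes were called, with a median absolute log2 fold change of 0.35. The simulation drew each gene independently from a normal distribution with the same SD in both strains. The heart data held correlated genes, an outlying WKY library and a larger median SD in WKY. Whether the rates hold for such data, for so many calls or for changes below 1.5-fold was not tested. Absolute depth is unknown; relative depth came from ratios of low values between libraries. Library measures were chosen after seeing the data and compared by exact permutation tests in Python 3.11.15.

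The members, gene lists and tests were chosen with earlier results of these data known. The rule for printed identifiers took, without symbols, the 2 largest rises and 2 largest falls in mean FPKM among called genes without overlap. Gene lists and cell type markers were fixed by symbol and could not be applied. Genes given by rank were chosen after their values were seen. Alternatives were median centring, quantile normalization, no filter or 5 FPKM, pseudocounts of 0.1 and 0.01, all 18 libraries, no trend, sample weights, a test against a 1.5-fold change, a replicate block and leaving out each library; leaving out WKY replicates 1 and 5 together was added after seeing the data.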

Additional observations from a re-analysis of the deposited data

Results flagged for a closer look

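Among 75 groups of 6 values examined, a single library stood far from the other 5 in 6, where chance flags about 1 in 20. ENSRNOG00000030478 was at 57404 FPKM in SHR replicate 4 and at 42180 to 45750 in the other SHR libraries. For ENSRNOG00000030700, QDG replicate 3 had 12576 FPKM and the other QDG libraries 7275 to 8810. For ENSRNOG00000043866, QDG replicate 1 had 77459 FPKM and the other 5 had 83969 to 87503. The gene ranked 5 was at 9771 FPKM in SHR replicate 6 and at 8301 to 8678 in the others. The gene ranked 114 was at 958 FPKM in WKY replicate 5 and at 524 to 634 in the others. The gene ranked 162 was at 1234 FPKM in SHR replicate 5 and at 189 to 461 in the others.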

How the results depend on the processing

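The count of 3916 called genes stayed within 1.5 times in 23 of 24 alternatives, from 2624 at a filter of 5 FPKM, where fewer genes were tested, to 4706 with sample weights. The genes were partly others: 3821 of the 3916 were called after median centring, 3212 without a filter and 3161 without WKY replicates 1 and 5. A test against a 1.5-fold change left 206 genes, 100 higher and 106 lower, which follows from the stricter threshold. At 5 FPKM 1223 genes were called lower. Leaving out each library in turn gave 3272 to 3855 genes, 1575 to 2022 higher and 1620 to 2029 lower. A replicate block gave 4332 genes, 2057 higher and 2275 lower. The labels do not say whether same-numbered libraries share anything beyond the number. Replicate 4 was the highest in each strain for ENSRNOG00000043866 and ENSRNOG00000030478, while their lowest libraries were WKY replicate 1 and SHR replicate 2. For ENSRNOG00000030700 replicate 5 was the lowest in each strain. With the block its SE went from 0.235 to 0.157, and that of the gene ranked 114 from 0.149 to 0.178. A shared batch was not tested. The 15 genes described by identifier or as abundant and changed 2-fold were chosen for being called; of their 360 values under alternatives, 10 lost the call, 8 of them at the 1.5-fold threshold and 2 after quantile normalization. The difference in the number of genes listed at 0, -32.7 with all libraries, ranged from -82.2 without WKY replicate 2 to 46.0 without WKY replicate 5 (exact permutation p = 0.786, 0.476 and 0.500). Gene lists were not run for lack of symbols. Unknown depth limits what can be said of genes near 0.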
